A study of Mus musculus with 9 samples.

Results

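The 47 genes described here copy DNA and mend it by homologous recombination. They were taken by gene symbol from a list of members that covers licensing of replication origins, the replication fork, the supply of nucleotides and repair, and each of the 47 symbols was found once among the 23282 gene rows. The RNA came from RAW264.7 cells, an established line of mouse macrophage-like cells that forms osteoclasts, the cells that resorb bone, when it is given the cytokine RANKL. The labels give the cells as BALB/c macrophages from blood lymph at passage 30, and there were 9 libraries in 3 groups of 3, each treated for 4 days. The negative control received RANKL (50 ng/mL) alone. The surface protein group received RANKL at this dose together with 10 µg/mL of proteins extracted from the surface of Propionibacterium freudenreichii MJ2, a dairy bacterium. The heat-killed group received whole killed MJ2 cells (1e7 cells/mL). The treatment protocol lists RANKL at 50 ng/mL for this group too, although this is not stated library by library. All 9 libraries are from a single cell line, and no source used here says that libraries of a group came from separate cultures, so the p-values measure only the spread between these libraries, which may be technical.

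A cell copies its DNA once in each division. Origins are licensed when the origin recognition complex, Cdc6 and Cdt1 load the ring of MCM2-7 proteins onto DNA, the ring is turned into an active helicase by Cdc45 and GINS, and polymerases then copy both strands behind it. Many of these genes are read out mainly in dividing cells, through E2F transcription factors, and the RANKL-driven path from macrophage to osteoclast includes divisions of precursors before they stop dividing and fuse.

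Each library holds the sequenced 3′ ends of messenger RNA, so its values do not depend on transcript length. The deposited values are read here as log2 of a scaled read number plus 1, from the steps between low values, while the exact scaling is not given in the sources used here. The number itself is called adjusted reads. A log2 fold change is a difference between group means of the deposited values, given with its standard error (SE), and it understates the change of genes with few reads. The libraries summed to between 5930926 and 6503682 adjusted reads. A gene was tested in a pair of groups when at least 3 of the 6 libraries held at least 10 adjusted reads of it, and all 47 members were tested in every pair. A gene was called when the adjusted p of limma was under 0.05 and the change was at least 2-fold. All 47 members held at least 10 adjusted reads in every library with RANKL alone, and 4 of them (Orc1, Pole, Exo1 and Fancd2) held fewer than 10 in at least 1 library with surface proteins. The cells carried macrophage transcripts in every group: the 10 macrophage markers together made up 0.401% to 0.416% of the reads with RANKL alone, 0.486% to 0.520% with heat-killed MJ2 and 0.435% to 0.466% with surface proteins. No library held more than 3 adjusted reads of any of the 6 lymphocyte markers.

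With surface proteins, the replication and repair genes were lower by the estimate than with RANKL alone in all 7 roles. The 47 members together made up 0.315%, 0.248% and 0.263% of the reads in replicates 1 to 3 with RANKL alone, 0.318%, 0.224% and 0.314% with heat-killed MJ2, and 0.102%, 0.0689% and 0.0762% with surface proteins. The libraries with surface proteins lay below the other 6 in this sum, and those of the other groups overlapped. Against RANKL alone, 37 of the 47 members were called lower with surface proteins and 0 higher, where 7.32% of the 10874 genes tested were called lower. At an adjusted p under 0.05 with any fold, 40 members were lower, against 13.2% of all genes tested. The 3 libraries with surface proteins lay below the 3 with RANKL alone in 44 members, against 23.7% of all genes tested. The members were chosen with earlier results of these data known, so these shares describe the list and do not test it. Every one of the 47 estimates was below 0, from -3.17 for Mcm6 to -0.25 for Pola2, with a median of -1.68, while the median over all genes tested was -0.0077. The estimate was at least 4-fold lower in 12 members. In bulk RNA, fewer cells that copy DNA and less of these transcripts in each cell cannot be told apart.

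With heat-killed MJ2, 0 of the 47 members were called against RANKL alone, and 0 had an adjusted p under 0.05 from limma. At an unadjusted p under 0.05 there were 3 members, Gins3, Rrm2 and Blm, where 22.6% of all genes tested were under it. Among all 10814 genes tested in that pair, 4.26% were called in either direction and 5.88% had an adjusted p under 0.05. The estimates lay above 0 in 30 members and below 0 in 17, with a median of 0.095 against -0.0042 over all genes tested, and 42 of them lay within 0.5 of 0. In 39 members the 95% interval of the difference stayed within a fold of 2 either way, so that a larger change was outside the interval for these and not for the other 8. The libraries of the groups did not overlap in 4 members, where 30.2% of all genes tested did not overlap: Gins3 and Cdt1 were lower and Rrm2 and Blm higher in all 3 libraries with heat-killed MJ2.

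Set directly against heat-killed MJ2, surface proteins gave 37 members called lower and 0 higher, with 4.97% of the 10916 genes tested called lower. An adjusted p under 0.05 was reached by 38 members, against 8.65% of all genes tested, and the libraries of surface proteins lay below those of heat-killed MJ2 in 46 members, against 20.1%. The median of the 47 differences was -1.68, against 0.031 over all genes tested. This count fell when some libraries were left out: without replicate 1 of heat-killed MJ2 it was 13, without replicate 3 of heat-killed MJ2 it was 15, and without replicate 2 of surface proteins it was 24, although no estimate changed sign in any of these fits. The calls lost without replicate 1 of heat-killed MJ2, among members still tested, had adjusted p from 0.053 to 0.13 (limma). In 34 members the call was made against both groups, in 3 against RANKL alone only, in 3 against heat-killed MJ2 only, and in 7 against neither. Both comparisons use the same 3 libraries of surface proteins, and so do not check each other.

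**Figure D1:**
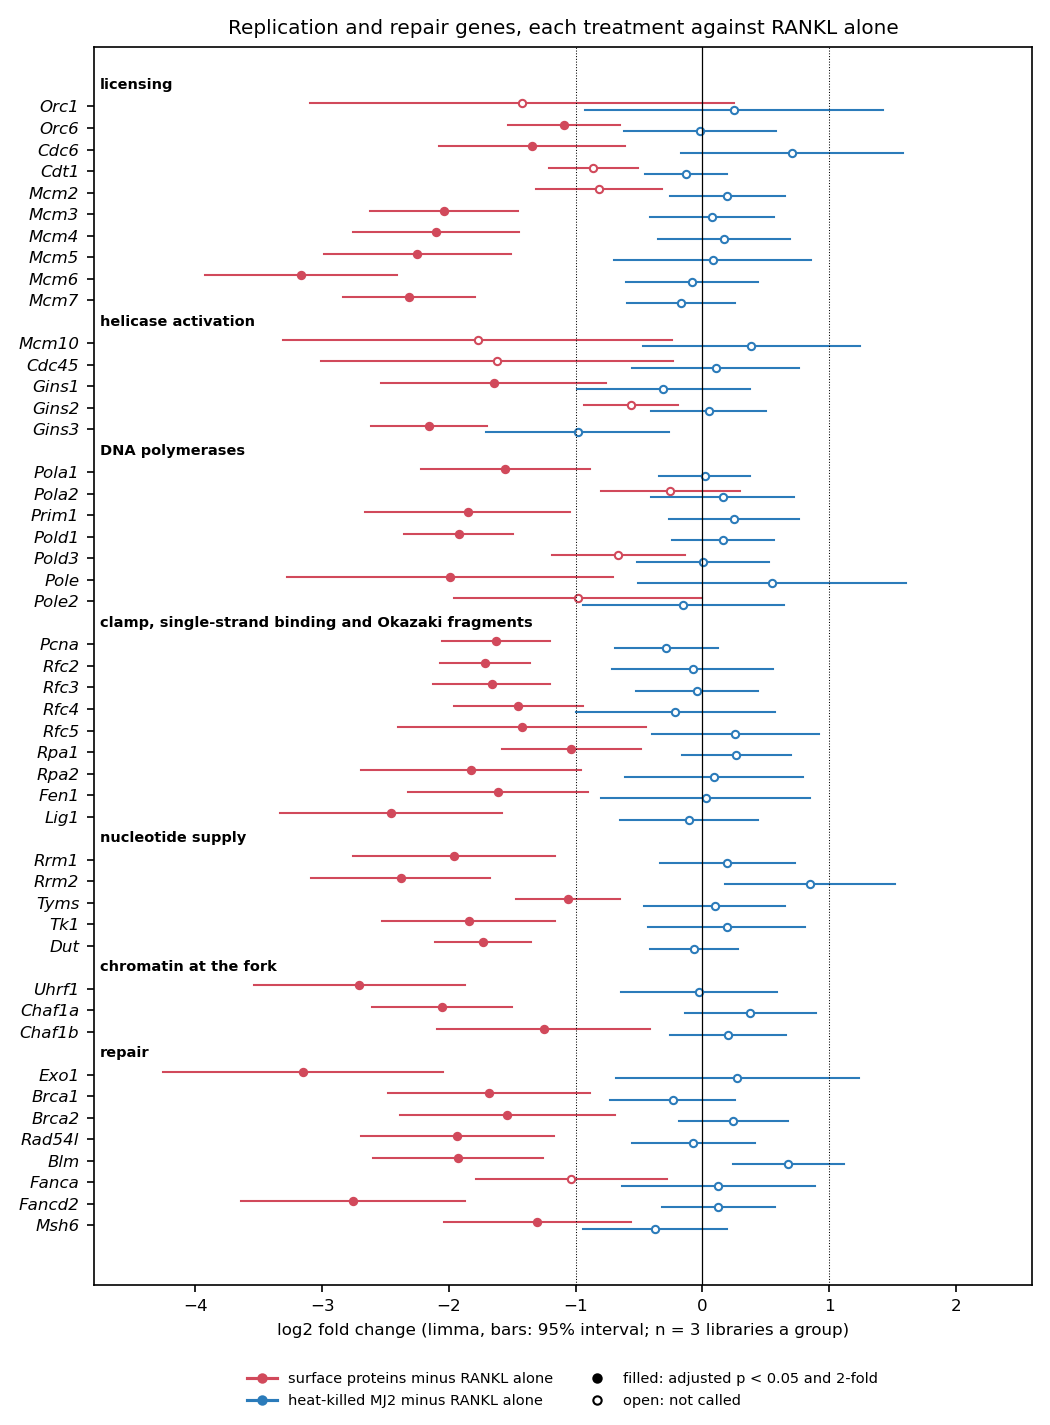
Each row is one of the 47 members, grouped by role, and the horizontal axis is the log2 fold change against RANKL alone, for surface proteins (red) and heat-killed MJ2 (blue), with bars for the 95% interval from limma (3 libraries a group) and filled points where the change was called. All 47 red points lie left of 0, from -3.17 to -0.25, and the blue points lie on both sides of 0, from -0.98 to 0.85, with none filled.

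Licensing genes, which place and load the helicase, had a median log2 fold change of -1.73 with surface proteins against RANKL alone, and 7 of 10 were called lower. The MCM2-7 proteins form a ring of 6 different subunits. Mcm6, one of the 6 (chr1:128331590-128359664, minus strand in GENCODE M21 on GRCm38), held 727, 516 and 572 adjusted reads with RANKL alone, 649.8, 445 and 627 with heat-killed MJ2 and 102, 46.0 and 60.5 with surface proteins. The log2 fold change with surface proteins was -3.17 (SE 0.31, adjusted p = 0.0016) against RANKL alone and -3.09 (SE 0.32, adjusted p = 0.0067) against heat-killed MJ2 (limma), with Exo1 next to it in the first of these comparisons (-3.15). With a constant of 0.1 in place of 1, Exo1 lay below Mcm6 (-3.45 and -3.19), and with quantile normalization too (-4.01 and -3.22). Mcm7 held 1483, 1153 and 1220.1 adjusted reads with RANKL alone, 1195, 957 and 1278 with heat-killed MJ2 and 292, 196 and 295 with surface proteins, and the log2 fold change was -2.31 (SE 0.22, adjusted p = 0.0013). An exon of Cops6 lies on the opposite strand over the 3′ end of Mcm7, and since the use of strand in the counting is not given in the sources used here, reads of one could have been counted for the other. Mcm5 held 646, 413 and 454 adjusted reads with RANKL alone, 677, 337 and 629.8 with heat-killed MJ2 and 131, 69.0 and 122 with surface proteins, with a log2 fold change of -2.25 (SE 0.30, adjusted p = 0.0041). Mcm4 held 549, 382 and 477 adjusted reads with RANKL alone, 500.1, 437 and 652 with heat-killed MJ2 and 153, 97.8 and 82.5 with surface proteins, and the log2 fold change was -2.10 (SE 0.27, adjusted p = 0.0034). For Mcm3 the levels were 802, 593 and 610.0 adjusted reads with RANKL alone, 752, 563 and 799 with heat-killed MJ2 and 199, 119 and 176 with surface proteins, and the log2 fold change was -2.04 (SE 0.24, adjusted p = 0.0027). In all 5 of these genes the libraries with surface proteins lay under every other library, while RANKL alone and heat-killed MJ2 overlapped. Mcm2, the remaining subunit and named here after its values were seen, held 605, 407 and 579 adjusted reads with RANKL alone, 597, 575 and 628 with heat-killed MJ2 and 343, 272 and 279.9 with surface proteins. In limma, the log2 fold change of -0.81 (SE 0.21, adjusted p = 0.030) passed the test and stayed under 2-fold.

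Cdc6, the loader that joins the origin recognition complex to the helicase, held 111, 70.2 and 121 adjusted reads with RANKL alone, 223, 98.7 and 187 with heat-killed MJ2 and 53.8, 29.7 and 34.2 with surface proteins. The log2 fold change with surface proteins was -1.34 (SE 0.30, adjusted p = 0.021) against RANKL alone and -2.05 (SE 0.37, adjusted p = 0.019) against heat-killed MJ2 (limma). The libraries with surface proteins lay below both other groups, and those of heat-killed MJ2 and RANKL alone overlapped, with a difference of 0.71 (SE 0.36, adjusted p = 0.31). The call of Cdc6 against heat-killed MJ2 was lost without replicate 1 or 3 of heat-killed MJ2 or replicate 2 or 3 of surface proteins (adjusted p from 0.055 to 0.064). Without replicate 1 or 3 of RANKL alone, or without replicate 2 or 3 of surface proteins, Cdc6 was no longer called (adjusted p from 0.062 to 0.067). The other licensing genes were Orc6 and Orc1, subunits of the origin recognition complex, and Cdt1, which brings the helicase to the origin. Orc6 was called lower, with a log2 fold change of -1.09 (SE 0.18, adjusted p = 0.0081) that was -0.95 and under 2-fold without replicate 2 of surface proteins. Cdt1, with a log2 fold change of -0.86, passed the test without reaching 2-fold. Orc1 had a log2 fold change of -1.42 (SE 0.69, adjusted p = 0.17), and its libraries with surface proteins (3.88, 19.2 and 19.8 adjusted reads) overlapped those with RANKL alone (58.3, 36.6 and 16.8). Without replicate 1 of surface proteins the estimate of Orc1 was -0.73.

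The promoters of 4 MCM genes and of Rfc3, a subunit of the clamp loader, are shown because they hold at least 2 matches each to the E2F site, the sequence through which E2F factors act on many genes of this kind. RefSeq promoters on GRCm38.p6, from 250 bases before to 50 bases after the start of transcription, were matched to 40 members (46 promoters, some members having more than 1), and those of the other 7 members were not used here. The 4 spellings TTTCCCGC, TTTCGCGC, TTTGCCGC and TTTGGCGC were searched on both strands. At least 1 occurred in 17 of the 46 promoters (37.0%), which belong to 17 members, in 4.11% of the 10585 promoters of genes tested and in 2.26% of all 32851 promoters. Capitals mark each match, read 5′ to 3′ on the strand of the gene.
Mcm3 promoter (chr1:20820263-20820562, minus strand): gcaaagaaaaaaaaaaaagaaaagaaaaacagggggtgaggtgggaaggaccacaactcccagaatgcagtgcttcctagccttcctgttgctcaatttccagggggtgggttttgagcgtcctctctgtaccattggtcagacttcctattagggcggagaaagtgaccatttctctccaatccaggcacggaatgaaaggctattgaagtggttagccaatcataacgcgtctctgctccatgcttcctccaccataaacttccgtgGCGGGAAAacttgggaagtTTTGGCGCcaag
Mcm5 promoter (chr8:75109259-75109558, plus strand): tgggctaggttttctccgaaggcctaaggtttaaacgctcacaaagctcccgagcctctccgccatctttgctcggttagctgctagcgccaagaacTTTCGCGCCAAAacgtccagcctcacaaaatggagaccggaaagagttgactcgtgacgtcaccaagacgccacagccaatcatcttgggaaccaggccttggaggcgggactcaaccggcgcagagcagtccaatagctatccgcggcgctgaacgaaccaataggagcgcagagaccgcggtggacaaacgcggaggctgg
Mcm6 promoter (chr1:128359656-128359955, minus strand): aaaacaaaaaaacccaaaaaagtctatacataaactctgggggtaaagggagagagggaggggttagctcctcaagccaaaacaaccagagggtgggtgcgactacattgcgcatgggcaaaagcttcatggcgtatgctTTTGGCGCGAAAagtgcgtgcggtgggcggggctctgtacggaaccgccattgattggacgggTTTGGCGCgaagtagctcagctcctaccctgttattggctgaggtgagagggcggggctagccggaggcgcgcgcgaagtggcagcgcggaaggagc
Mcm7 promoter (chr5:138171834-138172133, minus strand, the more upstream of its 2 promoters): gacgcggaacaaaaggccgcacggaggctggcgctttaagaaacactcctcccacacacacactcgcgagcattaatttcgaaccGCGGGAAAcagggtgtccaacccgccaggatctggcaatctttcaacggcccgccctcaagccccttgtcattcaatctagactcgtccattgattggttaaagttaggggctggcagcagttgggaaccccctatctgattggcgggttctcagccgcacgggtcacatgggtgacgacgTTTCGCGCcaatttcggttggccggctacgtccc
Rfc3 promoter (chr5:151651159-151651458, minus strand): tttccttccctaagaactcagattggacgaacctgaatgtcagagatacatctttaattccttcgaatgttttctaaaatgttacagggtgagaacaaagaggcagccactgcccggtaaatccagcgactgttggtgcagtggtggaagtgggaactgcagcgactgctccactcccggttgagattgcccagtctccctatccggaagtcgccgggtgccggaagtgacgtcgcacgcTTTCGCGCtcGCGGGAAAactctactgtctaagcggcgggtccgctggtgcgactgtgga

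In Mcm5 and in Mcm6, matches on opposite strands overlap, which gives the run of 12 capitals in each, and Mcm6 holds another match closer to its start. Of the 23 matches in member promoters, 14 began between 100 bases before and 50 bases after the start of transcription, and the median position was -27, where 0 is the first transcribed base. Of these 23 matches, 4 overlapped another E2F match and 1 (in Mcm7) shared a base with a CCAAT box. The CCAAT box (CCAAT, both strands), bound by NF-Y, occurred in 60.9% of member promoters against 37.6% of those of genes tested, and the GC box (GGGCGG) in 73.9% against 63.2%. The CHR element (TTTGAA), known from genes that peak in mitosis, occurred in 8.70% against 12.0%. The promoters had a median GC content of 59.2%, close to the 60.7% of the genes tested. Of the 17 members with an E2F match, 13 were called lower with surface proteins against RANKL alone and the median log2 fold change was -1.66, and of the 23 members whose promoters held none, 18 were called and the median was -1.62. These matches are descriptions of letters, and binding was not measured.

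Of the 5 genes that turn the loaded ring into an active helicase, 2 were called lower with surface proteins against RANKL alone, with a median of -1.65. Gins3, a subunit of the GINS complex (chr8:95633453-95645060, plus strand), held 385, 322 and 267 adjusted reads with RANKL alone, 176, 107 and 224 with heat-killed MJ2 and 81.2, 64.3 and 69.3 with surface proteins. With surface proteins the log2 fold change of Gins3 was -2.16 (SE 0.19, adjusted p = 0.0011) against RANKL alone and -1.17 (SE 0.28, adjusted p = 0.038) against heat-killed MJ2 (limma). The call of Gins3 against heat-killed MJ2 was made in 10 of 16 refits, and of the 6 fits that left out a library, the one without replicate 2 of heat-killed MJ2 kept it (adjusted p in the others from 0.061 to 0.12). The 3 groups did not overlap, with heat-killed MJ2 in between, and the difference between heat-killed MJ2 and RANKL alone was -0.98 (SE 0.30, adjusted p = 0.12), the lowest of the 47 members. Of the alternatives, the one in which limma used a trended, robust spread gave it an adjusted p of 0.011. Gins1, another GINS subunit, held 91.0, 133 and 79.1 adjusted reads with RANKL alone, 109, 64.8 and 70.7 with heat-killed MJ2 and 44.0, 18.2 and 36.3 with surface proteins, and the log2 fold change was -1.65 (SE 0.37, adjusted p = 0.020). Without replicate 2 of RANKL alone the adjusted p of Gins1 was 0.053 and the log2 fold change -1.43. Gins2, a further GINS subunit, had a log2 fold change of -0.56 (SE 0.15, adjusted p = 0.036), which passed the test under 2-fold, and an exon of Gse1 lies over its 3′ end on the opposite strand. Mcm10, which helps to open the DNA at the origin, held 185, 73.4 and 149 adjusted reads with RANKL alone, 184, 139 and 178 with heat-killed MJ2 and 72.4, 14.3 and 45.1 with surface proteins. The spread of Mcm10 was wide in both groups, and its log2 fold change of -1.77 (SE 0.63, adjusted p = 0.081) against RANKL alone did not pass, while that of -2.16 (SE 0.56, adjusted p = 0.045) against heat-killed MJ2 did (limma). Without replicate 1 of surface proteins Mcm10 passed against RANKL alone too (-2.26, adjusted p = 0.048), and without replicate 2 the estimate was -1.13. Against heat-killed MJ2 the call of Mcm10 was made in 10 of 16 refits. It was lost without any 1 library of heat-killed MJ2 or without replicate 3 of surface proteins (adjusted p from 0.072 to 0.12), and without replicate 2 of surface proteins the estimate was -1.52. Cdc45, the partner of GINS in the helicase, had a log2 fold change of -1.62 (SE 0.57, adjusted p = 0.079), and without replicate 1 of surface proteins, its highest, this was -2.21 (adjusted p = 0.017), and without replicate 3 it was -1.02.

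The DNA polymerases ranged from Pole, with the lowest log2 fold change of the role (-1.99), to Pola2, the member nearest to 0 (-0.25). The median was -1.56 over 7 members with surface proteins against RANKL alone, and 4 were called lower. Pole, the catalytic subunit of the leading-strand polymerase (chr5:110286306-110337474, plus strand), held 112, 33.5 and 82.1 adjusted reads with RANKL alone, 121, 89.0 and 91.3 with heat-killed MJ2 and 20.5, 23.0 and 8.94 with surface proteins. The log2 fold change was -1.99 (SE 0.53, adjusted p = 0.035) against RANKL alone and -2.54 (SE 0.36, adjusted p = 0.012) against heat-killed MJ2 (limma). Replicate 2 of RANKL alone was low for Pole, near the libraries with surface proteins, and the call against RANKL alone was lost in 5 of the 6 fits that left out a library (all but the one without this replicate), with adjusted p from 0.059 to 0.095. Pole2, the second subunit of this polymerase, held 46.8, 91.5 and 80.1 adjusted reads with RANKL alone, 76.7, 73.5 and 44.1 with heat-killed MJ2 and 23.5, 30.7 and 59.3 with surface proteins, and the log2 fold change of -0.98 (SE 0.40, adjusted p = 0.12) did not pass, and replicate 3 of surface proteins lay among the libraries with RANKL alone. Without that library the log2 fold change was -1.35 and passed (adjusted p = 0.044). Pold1, the catalytic subunit of the lagging-strand polymerase, held 199.7, 248 and 187 adjusted reads with RANKL alone, 264, 219 and 226 with heat-killed MJ2 and 61.6, 47.9 and 55.0 with surface proteins. The libraries of Pold1 with surface proteins varied little, and the log2 fold change was -1.92 (SE 0.18, adjusted p = 0.0013). Prim1, which makes the RNA primer, held 164, 123 and 112 adjusted reads with RANKL alone, 191, 146 and 135 with heat-killed MJ2 and 56.7, 23.9 and 33.1 with surface proteins, and the log2 fold change was -1.85 (SE 0.33, adjusted p = 0.010). Pola1, the catalytic subunit that extends the primer, was called lower as well, with a log2 fold change of -1.55 (SE 0.28, adjusted p = 0.0098). Pold3 had a log2 fold change of -0.66 (SE 0.22, adjusted p = 0.063). Pola2, which tethers the primase, held 234, 164 and 282 adjusted reads with RANKL alone, 269, 212 and 265 with heat-killed MJ2 and 187, 169 and 202 with surface proteins. Libraries with RANKL alone overlapped those of both treatments, while surface proteins lay below heat-killed MJ2. Its estimate was -0.25, with a 95% interval from -0.80 to 0.29, so that a fall of 2-fold or more lay outside the interval. Pola2 is named after its values were seen, as the member nearest to 0.

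The sliding clamp, its loader, the proteins that coat single-stranded DNA and those that finish Okazaki fragments were called lower with surface proteins against RANKL alone in 9 of 9 members, with a median of -1.62. Lig1, the ligase that seals Okazaki fragments (chr7:13277283-13311433, plus strand), was the most abundant member of the 47 and held 2804, 2051 and 2015 adjusted reads with RANKL alone, 2524, 1635 and 2259 with heat-killed MJ2 and 707, 284 and 347 with surface proteins. With surface proteins the log2 fold change of Lig1 was -2.46 (SE 0.36, adjusted p = 0.0053) against RANKL alone and -2.35 (SE 0.37, adjusted p = 0.014) against heat-killed MJ2 (limma), and the second call was lost without replicate 1 or 3 of heat-killed MJ2 (adjusted p of 0.056 and 0.052). Fen1, which trims the flap ahead of the ligase, held 387, 282 and 331 adjusted reads with RANKL alone, 479, 200.3 and 398 with heat-killed MJ2 and 151, 71.9 and 114 with surface proteins, and the log2 fold change was -1.61 (SE 0.29, adjusted p = 0.010). Pcna, the clamp that holds polymerases on DNA, held 1136, 837 and 992 adjusted reads with RANKL alone, 848, 718 and 855 with heat-killed MJ2 and 354, 281 and 321 with surface proteins, with a log2 fold change of -1.62 (SE 0.18, adjusted p = 0.0021). For all of these genes the libraries with surface proteins lay below every other library. The clamp loader, replication factor C, was lower in each of the 4 subunits that are members. Rfc2 held 291, 253 and 296 adjusted reads with RANKL alone, 348, 179 and 297 with heat-killed MJ2 and 76.3, 88.3 and 89.1 with surface proteins, and the log2 fold change of -1.72 (SE 0.15, adjusted p = 9.8e-04) had the lowest adjusted p of the members. Rfc3 held 205, 147 and 161 adjusted reads with RANKL alone, 198, 142 and 157 with heat-killed MJ2 and 54.8, 59.5 and 45.1 with surface proteins, with a log2 fold change of -1.66 (SE 0.19, adjusted p = 0.0025). Rfc5 held 181, 209 and 260.0 adjusted reads with RANKL alone, 282, 179 and 335 with heat-killed MJ2 and 148, 66.2 and 50.7 with surface proteins. Replicate 1 of surface proteins stood high for Rfc5, and the log2 fold change was -1.42 (SE 0.40, adjusted p = 0.042). The call of Rfc5 was lost in all but 1 of the fits that left out a library, the one without that replicate, with adjusted p from 0.0749 to 0.12. Rfc4 was called lower with a log2 fold change of -1.45. Exons of Eif4a2 and Wsb2 lie on the opposite strand over the 3′ ends of Rfc4 and Rfc5.

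Replication protein A coats single-stranded DNA behind the helicase. Rpa2 held 735, 470.1 and 419 adjusted reads with RANKL alone, 607, 415 and 700.4 with heat-killed MJ2 and 237, 107 and 126 with surface proteins, and the log2 fold change was -1.82 (SE 0.36, adjusted p = 0.014) against RANKL alone (limma). Rpa1, the largest subunit, held 349, 326 and 397 adjusted reads with RANKL alone, 479.7, 351 and 469 with heat-killed MJ2 and 226, 177 and 131 with surface proteins. The libraries of Rpa1 with surface proteins lay below all the others, and the log2 fold change of -1.03 (SE 0.23, adjusted p = 0.020) was just past 2-fold. Without replicate 1 or 3 of RANKL alone or replicate 2 of surface proteins its adjusted p rose to between 0.053 and 0.060, and without replicate 3 of surface proteins its log2 fold change of -0.83 was under 2-fold.

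Every one of the 5 genes that supply deoxynucleotides was called lower with surface proteins, against RANKL alone and against heat-killed MJ2, with medians of -1.84 and -2.04. Against heat-killed MJ2 the call of Tyms was made in 9 of 16 refits, and was lost in each fit that left out a library apart from the one without replicate 2 of heat-killed MJ2 (adjusted p from 0.055 to 0.066). Rrm1 and Tk1 were not called against heat-killed MJ2 without its replicate 1 or 3 (adjusted p from 0.051 to 0.056). Rrm2, the small subunit of ribonucleotide reductase, which makes deoxynucleotides from ribonucleotides (chr12:24708241-24714146, plus strand), held 232, 139 and 206 adjusted reads with RANKL alone, 376, 249.6 and 415 with heat-killed MJ2 and 47.9, 25.9 and 35.3 with surface proteins. The 3 groups did not overlap, with heat-killed MJ2 the highest and surface proteins the lowest. The log2 fold change of Rrm2 with surface proteins was -2.38 (SE 0.29, adjusted p = 0.0030) against RANKL alone and -3.23 (SE 0.29, adjusted p = 0.0052) against heat-killed MJ2 (limma). With heat-killed MJ2 against RANKL alone it was 0.85 (SE 0.28, adjusted p = 0.14), the highest of the members, and the fit with a trended, robust spread gave an adjusted p of 0.016. Rrm1, the large subunit, held 621, 445 and 511 adjusted reads with RANKL alone, 735, 467 and 620.2 with heat-killed MJ2 and 207, 131 and 86.9 with surface proteins, and the log2 fold change was -1.96 (SE 0.33, adjusted p = 0.0082). Tk1, the thymidine kinase of dividing cells, held 759.6, 531 and 583 adjusted reads with RANKL alone, 778, 508 and 886 with heat-killed MJ2 and 187, 118 and 227 with surface proteins, with a log2 fold change of -1.84 (SE 0.28, adjusted p = 0.0060). Dut, which removes dUTP and so keeps uracil out of DNA, held 812, 708 and 663 adjusted reads with RANKL alone, 751, 646 and 684 with heat-killed MJ2 and 237, 193 and 226 with surface proteins. The libraries of each group lay close together for Dut, and the log2 fold change was -1.73 (SE 0.16, adjusted p = 0.0012). Tyms, which makes thymidylate, had the smallest change of the 5 genes, with a log2 fold change of -1.06 (SE 0.17, adjusted p = 0.0071). Without replicate 1 of surface proteins it was -0.95 and under 2-fold.

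**Figure D2:**
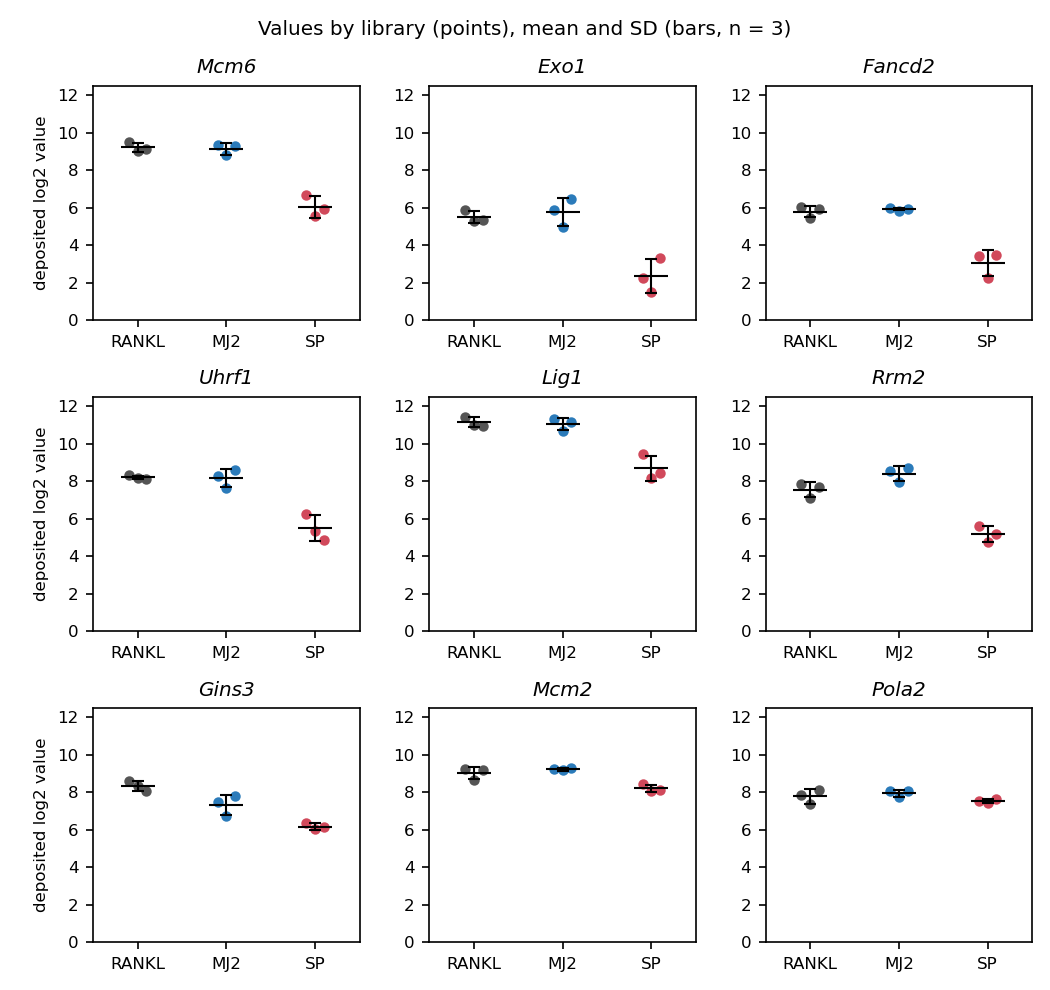
The panels show 9 members, with the deposited log2 value on the vertical axis and points for the 3 libraries with RANKL alone, heat-killed MJ2 (MJ2) and surface proteins (SP), and bars for the mean and SD. In 8 of the panels the points with surface proteins lie below every point of the other groups, and in Pola2 they lie below those with heat-killed MJ2 but among those with RANKL alone, with means of 7.80, 7.96 and 7.54.

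The chromatin factors of the fork were called lower in 3 of 3 members with surface proteins against RANKL alone, with a median of -2.05. Uhrf1, which reads hemimethylated DNA behind the fork and brings in the methyltransferase Dnmt1 (chr17:56303321-56323486, plus strand), held 318, 293 and 276 adjusted reads with RANKL alone, 312, 201 and 389 with heat-killed MJ2 and 75.3, 40.2 and 28.7 with surface proteins. The log2 fold change was -2.71 (SE 0.34, adjusted p = 0.0033) against RANKL alone and -2.68 (SE 0.40, adjusted p = 0.014) against heat-killed MJ2 (limma), and the second call was lost without replicate 1 of heat-killed MJ2 (adjusted p = 0.056). Chaf1a, the large subunit of the factor that places new histones, held 269, 212 and 217 adjusted reads with RANKL alone, 295, 240.0 and 386 with heat-killed MJ2 and 58.7, 41.2 and 69.3 with surface proteins, with a log2 fold change of -2.05 (SE 0.23, adjusted p = 0.0022). An exon of Ubxn6 lies on the opposite strand over the 3′ end of Chaf1a. Chaf1b, its partner, was called lower with a log2 fold change of -1.25, and the call was kept in 1 of the 6 fits that left out a library, the one without replicate 1 of surface proteins (adjusted p from 0.075 to 0.12 in the others). The libraries with surface proteins lay below all others in each of the 3 genes.

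Among the repair genes, 7 of 8 were called lower with surface proteins against RANKL alone, with a median of -1.81. Exo1, the exonuclease that resects DNA ends and acts in mismatch repair (chr1:175880581-175913489, plus strand), held 59.2, 38.8 and 39.5 adjusted reads with RANKL alone, 59.3, 30.9 and 88.4 with heat-killed MJ2 and 3.88, 1.86 and 8.92 with surface proteins. Exo1 stood under 10 adjusted reads in every library with surface proteins, and its log2 fold change was -3.15 (SE 0.46, adjusted p = 0.0051) against RANKL alone and -3.43 (SE 0.55, adjusted p = 0.015) against heat-killed MJ2 (limma). Exo1 thus met the read minimum only through the other groups, where it was higher. In each comparison it was tested in 12 of the 16 refits, and called in these 12. Fancd2, which is loaded at blocked forks in the Fanconi pathway, held 64.8, 43.1 and 59.3 adjusted reads with RANKL alone, 62.4, 57.1 and 60.9 with heat-killed MJ2 and 9.76, 3.78 and 10.0 with surface proteins. In limma, the log2 fold change was -2.76 (SE 0.37, adjusted p = 0.0039), with replicate 2 the lowest of the libraries with surface proteins, and an exon of Fancd2os lies over its 3′ end on the opposite strand. Rad54l, a DNA motor protein of homologous recombination, held 917, 760.1 and 577 adjusted reads with RANKL alone, 686, 659.8 and 767 with heat-killed MJ2 and 218, 258 and 126 with surface proteins, and the log2 fold change was -1.93 (SE 0.32, adjusted p = 0.0075). Blm, the helicase that takes apart joined DNA strands, held 121, 121 and 93.9 adjusted reads with RANKL alone, 180.0, 153 and 206 with heat-killed MJ2 and 43.0, 23.0 and 23.2 with surface proteins. With surface proteins the log2 fold change of Blm was -1.93 (SE 0.28, adjusted p = 0.0050). With heat-killed MJ2 all 3 libraries lay above RANKL alone, with a difference of 0.68 (SE 0.18, adjusted p = 0.087) that did not pass. Brca1, which promotes end resection, held 73.2, 68.9 and 69.2 adjusted reads with RANKL alone, 69.6, 44.5 and 68.7 with heat-killed MJ2 and 36.2, 18.2 and 14.4 with surface proteins. Brca2, which acts in strand exchange, held 146, 166 and 119 adjusted reads with RANKL alone, 151, 189.7 and 167 with heat-killed MJ2 and 64.6, 27.8 and 62.7 with surface proteins.

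With surface proteins, Brca1 changed against RANKL alone by -1.68 (SE 0.33, adjusted p = 0.013) and Brca2 by -1.54 (SE 0.35, adjusted p = 0.022) on the log2 scale (limma). In both genes the libraries with surface proteins lay below all the others, while RANKL alone and heat-killed MJ2 overlapped. Without replicate 1 or 2 of RANKL alone the adjusted p of Brca2 was 0.061 or 0.060. Msh6, a subunit of the mismatch sensor, held 457, 278 and 455 adjusted reads with RANKL alone, 280.3, 277 and 342 with heat-killed MJ2 and 201, 173 and 109.9 with surface proteins. The log2 fold change was -1.30 (SE 0.30, adjusted p = 0.023), and the adjusted p lay between 0.054 and 0.070 without replicate 1 or 3 of RANKL alone or replicate 2 or 3 of surface proteins. An exon of Fbxo11 lies on the opposite strand over the 3′ end of Msh6. Fanca, a scaffold of the Fanconi core complex and the remaining repair gene, had a log2 fold change of -1.03 at the edge of the threshold (adjusted p = 0.0503), which passed without replicate 2 of RANKL alone (-1.34, adjusted p = 0.015), and an exon of Zfp276 lies over its 3′ end.

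**Figure D3:**
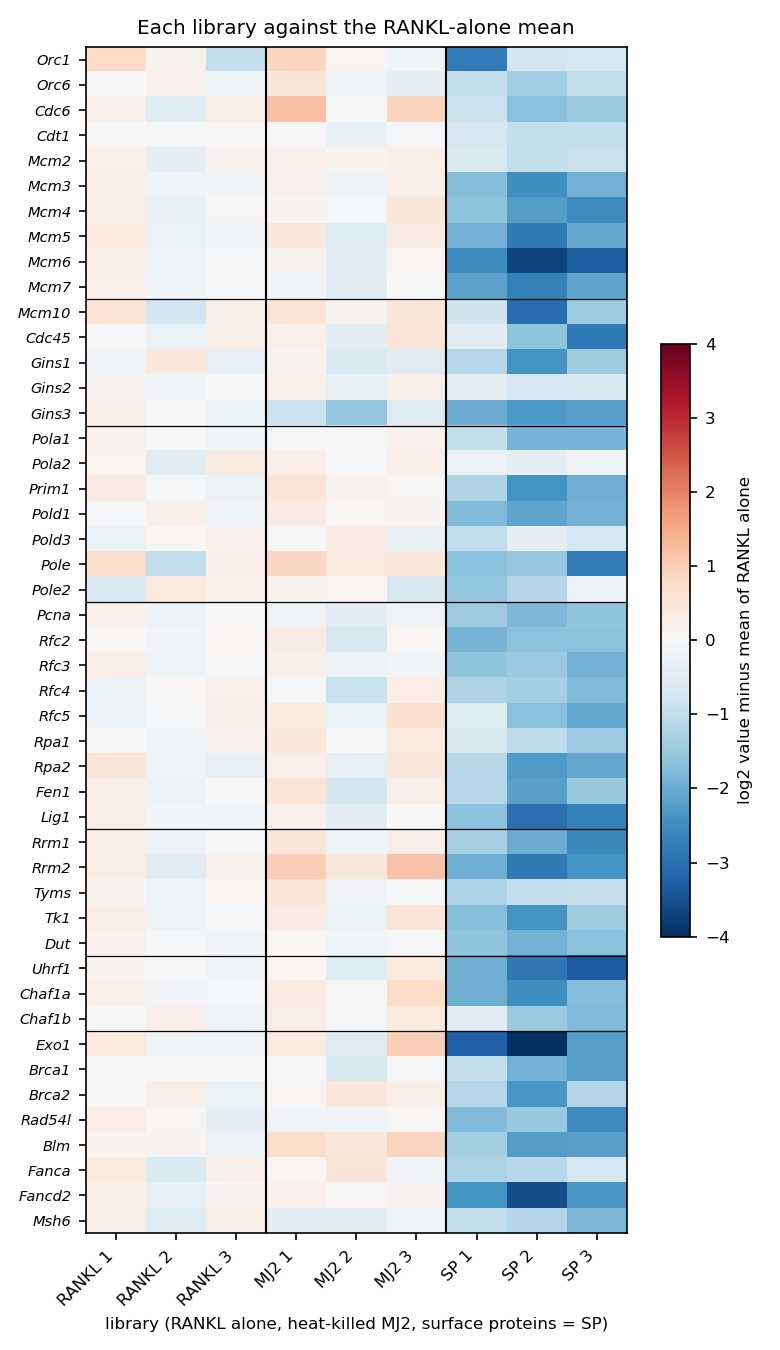
The colour of each cell is the deposited log2 value of a member (rows, in the order of the roles) in a library (columns) minus the mean of the 3 libraries with RANKL alone, on a scale from -4 to 4. The 3 right-hand columns (surface proteins, SP) are blue in nearly all rows, with Pola2 close to white, and the columns of heat-killed MJ2 (MJ2) are mixed.

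The members varied more among the libraries with surface proteins than among the others. The median SD over the 47 members was 0.48 with surface proteins, 0.32 with heat-killed MJ2 and 0.25 with RANKL alone, while the medians over the 11193 genes that reached 10 adjusted reads in 3 or more of the 9 libraries were 0.25, 0.23 and 0.24. Single libraries stood high or low in many members at once. Replicate 1 of surface proteins was the highest of its group in 31 members, and replicate 2 was the lowest in 28. Replicate 2 of heat-killed MJ2 was the lowest of its group in 39 members, and replicate 1 of RANKL alone was the highest in 32. The widest spread was that of Orc1 with surface proteins (SD 1.19) and the narrowest that of Cdt1 with RANKL alone (SD 0.04).

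Subunits of one complex did not share one estimate. In each complex the subunits with the lowest and the highest log2 fold change with surface proteins against RANKL alone were set side by side after their values were seen, so they are given as a description with no test. In the MCM2-7 ring these were Mcm6 (-3.17) and Mcm2 (-0.81). The log2 ratio of Mcm6 to Mcm2 was 0.26, 0.34 and -0.02 in the libraries with RANKL alone, 0.12, -0.37 and 0.00 with heat-killed MJ2, and -1.74, -2.54 and -2.19 with surface proteins. In GINS they were Gins3 (-2.16) and Gins2 (-0.56), with log2 ratios of 0.28, 0.25 and -0.11 with RANKL alone, -0.92, -1.14 and -0.62 with heat-killed MJ2, and -1.45, -1.48 and -1.42 with surface proteins. The ratio in GINS was below RANKL alone in both treated groups. In each of these pairs the ratios with surface proteins lay below those with RANKL alone.

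In polymerase alpha-primase, Prim1 (-1.85) stood beside Pola2 (-0.25), and both are members. In the next complexes the highest subunit is not among the 47. In polymerase delta, Pold1 (-1.92) stood beside Pold2 (-0.46), and in polymerase epsilon, Pole (-1.99) beside Pole4 (0.17). In replication factor C, Rfc2 (-1.72) stood beside Rfc1 (-0.53), the subunit that binds the clamp, and in replication protein A, Rpa2 (-1.82) beside Rpa3 (-0.07). Ribonucleotide reductase showed the widest gap, between Rrm2 (-2.38) and Rrm2b (0.87), the small subunit that p53 induces and that also serves cells outside S phase. The log2 ratio of Rrm2 to Rrm2b was 2.87, 1.53 and 1.95 with RANKL alone, 2.75, 2.26 and 3.48 with heat-killed MJ2, and -0.96, -1.72 and -0.73 with surface proteins. In the origin recognition complex, Orc1 (-1.42) stood beside Orc2 (-0.01). Orc1 was not called, and its ratio to Orc2 overlapped between surface proteins and RANKL alone. Bard1 (-2.93), the partner of Brca1, and Fanci (-1.51), the partner of Fancd2, were called lower as well. Without replicate 3 of RANKL alone or of surface proteins Fanci was not called (adjusted p of 0.054 and 0.055).

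Of the 47 members, 13 start within 1000 bases of a protein-coding gene on the opposite strand in GENCODE M21 on GRCm38, so that the pair shares the DNA between or across its starts. Of the 13 neighbours, 12 were tested with surface proteins against RANKL alone, and 0 of them were called in either direction, where 17.5% of all genes tested were called. The lowest adjusted p among the 12 from limma was 0.27, and 0 of them had an unadjusted p under 0.05, against 42.3% of all genes tested. The neighbours had log2 fold changes from -0.32 to 0.40 with a median of 0.10, while the members of the same 12 pairs had a median of -1.67, with 10 called lower. Fancd2 (-2.76) and Emc3 (0.36) have starts 30 bases apart, and the log2 ratio of Fancd2 to Emc3 was -2.12 ± 0.41 with RANKL alone, -2.13 ± 0.25 with heat-killed MJ2 and -5.24 ± 0.99 with surface proteins (SD, n = 3 each). Mcm4 (-2.10) starts 466 bases from Prkdc (0.02), which acts in end joining. The ratio of member to neighbour was lower in all 3 libraries with surface proteins than in all 3 with RANKL alone in 10 of the 13 pairs, each with p = 0.1 in the exact two-sided permutation test, which is the smallest p that 3 against 3 libraries allow. Since the tested neighbours changed little, these ratios mostly repeat the change of the members and are no separate support. The share of such ratios among other gene pairs is not given here. The pairs whose ratios did not lie lower in this way were Orc1 with Prpf38a, Cdc45 with Ufd1 and Pole with Pxmp2. Pxmp2 was not tested and held 11.4, 8.55 and 2.96 adjusted reads with RANKL alone and 0, 0 and 0.061 with surface proteins.

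**Figure D4:**
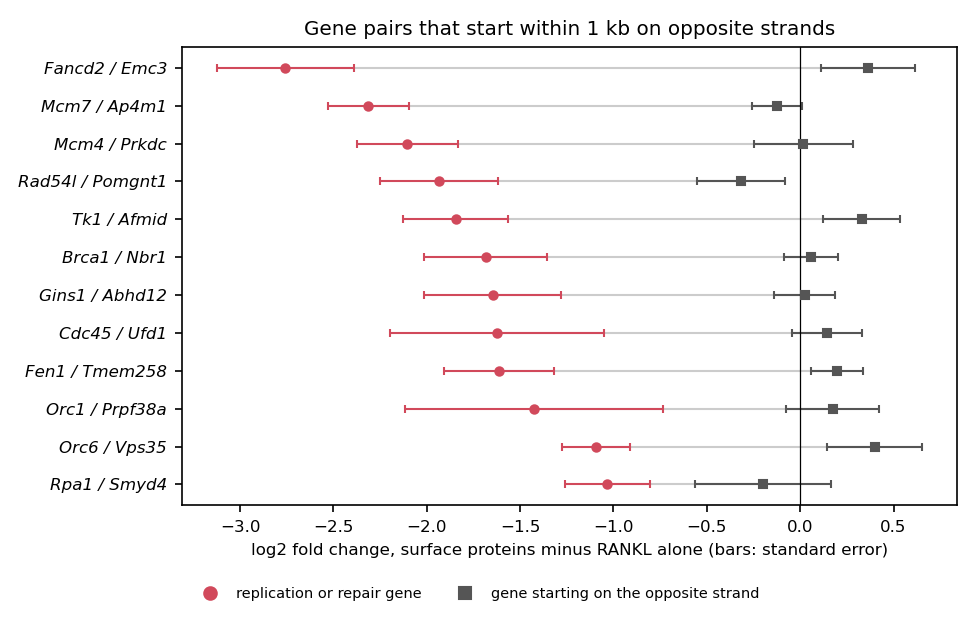
Each row is a member and the protein-coding gene that starts within 1 kb of it on the opposite strand, and the horizontal axis is the log2 fold change with surface proteins against RANKL alone, with bars for the standard error (3 libraries a group). The members (red) lie between -2.76 and -1.03 and the 12 neighbours (grey) between -0.32 and 0.40.

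Other genes of these pathways were lower in part. Of the 38 further replication genes tested, 15 were called lower and 0 higher with surface proteins against RANKL alone, with a median of -0.83, and 0 were called with heat-killed MJ2. The lowest were Chtf18 (-3.40), part of an alternative clamp loader, and Wdhd1 (-2.60), which links the helicase to polymerase alpha. Replicate 3 of surface proteins was low for Chtf18, with a log2 fold change of -2.35 without it and -4.09 without replicate 2, and without replicate 1 of surface proteins or any library of RANKL alone Chtf18 was not called (adjusted p from 0.056 to 0.10). In this list the highest was Rrm2b (0.87), which did not pass. Of the 33 further genes of homologous repair and the Fanconi pathway, 9 were called lower and 1 higher, with a median of -0.60. The lowest was again Bard1 (-2.93), and the 1 that rose was Eme1 (1.15), a subunit of a nuclease that cuts branched DNA. The 24 genes of end joining and excision repair had a median of 0.03, with 1 called lower, Ung (-1.63), which removes uracil from DNA, and 1 called higher, Dclre1c (1.40), the nuclease Artemis. Of all genes tested, 7.32% were called lower and 10.2% higher, so the shares of the end joining and excision repair genes lay under the background. The shares called lower of the further replication genes (39.5%) and homologous repair genes (27.3%) lay above it. These lists were compared by counts and medians only, and whether they differ from the 47 members was not tested.

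Of the 25 regulators of the passage from G1 to S phase, 7 were called lower and 1 higher with surface proteins against RANKL alone, with a median of -0.79. The lowest were E2f8 (-3.04) and E2f7 (-2.44), repressors of the E2F family that are themselves E2F targets, and the one called higher was Ccnd2, a D-type cyclin. With a library left out E2f7 ran from -3.04 (without replicate 1 of surface proteins) to -1.65 (without replicate 2), and without replicate 3 or any library of RANKL alone it was not called (adjusted p from 0.072 to 0.093). Ccnd2 had log2 values of 3.36, 0.13 and 0 with RANKL alone, against 5.75, 6.09 and 5.85 with surface proteins and 3.49, 5.54 and 3.97 with heat-killed MJ2. With RANKL alone Ccnd2 stayed under 10 adjusted reads in every library, so it met the read minimum only through the libraries with surface proteins. Of the 24 mitosis genes, 21 were called lower, with a median of -2.23, and the lowest was Nuf2 (-3.44), a part of the kinetochore. Without replicate 3 of RANKL alone, Aurka, Birc5, Ccnb1, Ccnb2, Cdc20, Cenpe, Ndc80 and Prc1 were not called (adjusted p from 0.0503 to 0.079, limma). Their estimates stayed below 0 in that fit. With heat-killed MJ2, 0 genes were called against RANKL alone in each of these lists, with an unadjusted p under 0.05 in 2 of the replication, 4 of the homologous repair, 1 of the end joining and excision, 6 of the G1/S and 0 of the mitosis genes (limma), against 22.6% of all genes tested. An adjusted p under 0.05 with a change of less than 2-fold was reached by 1 of the homologous repair and 2 of the G1/S genes. The mitosis genes together made up 0.190% to 0.231% of the reads with RANKL alone, 0.174% to 0.261% with heat-killed MJ2 and 0.0242% to 0.0762% with surface proteins. Their part in the result for the members was not tested.

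**Figure D5:**
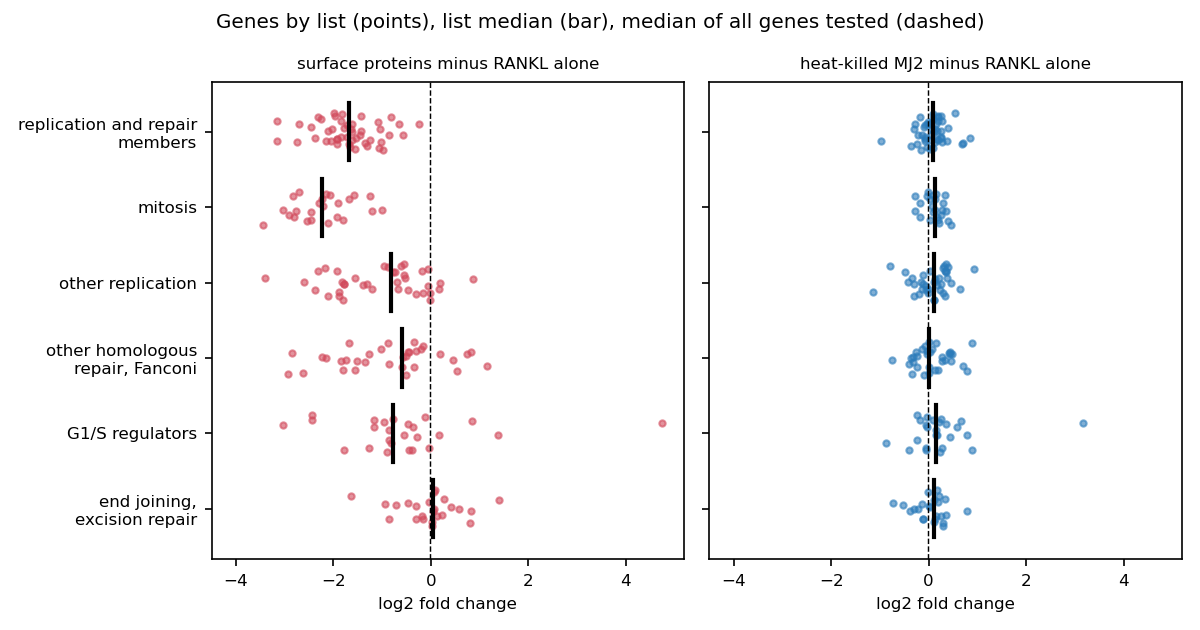
Points are single genes of 6 lists, the horizontal axis is the log2 fold change against RANKL alone for surface proteins (left) and heat-killed MJ2 (right), the thick bar is the median of the list and the dashed line the median of all genes tested. With surface proteins the medians run from -2.23 for mitosis genes and -1.68 for the members to 0.03 for end joining and excision repair, and with heat-killed MJ2 they lie close to 0.

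Markers of other cell states moved in the same libraries. The 10 osteoclast markers, of which 9 were tested, together made up 0.338% to 0.537% of the reads with RANKL alone, 0.223% to 0.268% with heat-killed MJ2 and 0.0809% to 0.124% with surface proteins. Of these, 7 were called lower with surface proteins and 3 with heat-killed MJ2, each against RANKL alone, where 7.32% and 0.897% of all genes tested were called lower. Of the 47 members, 37 and 0 were called lower in the same comparisons. Of the 10 macrophage markers, 4 were called higher with surface proteins (Adgre1, Itgam, Lyz2 and Cd14) and 1 lower (Csf1r), and 3 were called higher with heat-killed MJ2 (Itgam, Lyz2 and Cd14), each against RANKL alone. Of all genes tested, 10.2% and 3.37% were called higher in these comparisons. Of 8 fibroblast and epithelial markers, 4 with RANKL alone, 5 with heat-killed MJ2 and 7 with surface proteins did not exceed 3 adjusted reads in any library of the group. The part of these states in the values of the members was not tested.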

How the data were processed

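Groups and replicate numbers came from the sample titles. The authors deposited log2 values, 1 per gene symbol and library, from QuantSeq 3′ libraries (75-base single-end reads). The paper names quantile normalization, although the sorted values of the libraries are not identical, and the submitters' processing notes name Bowtie2, bedtools and mm10 without versions. The annotation, the use of strand and the counting of shared reads are not given in the sources used here.

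Adjusted reads are 2 raised to the deposited value, minus 1. Low values (under 3.5) lay within 0.25 of whole steps of 0.985 to 1.06, so 1 step is taken as about 1 read. Each pair of groups was fitted on its own 6 libraries with limma 3.58.1 (lmFit and eBayes, R 4.3.3), and p-values were adjusted by Benjamini-Hochberg over all genes tested, not over the members. The exact permutation tests were two-sided. The members and lists were chosen with earlier results of these data known. Values in every library are given for the largest rise and fall of each role with either treatment against RANKL alone and, since 40 members were called in some comparison, for the 30 of these with the largest change in any comparison (34 members), and also for Mcm2 and Pola2. The complexes and the other genes given with statistics were chosen after their values were seen. Gene starts came from GENCODE M21 and promoters from RefSeq, both on GRCm38. With 3 libraries a group no outlier test was made. Some genes of these lists enter the counts and medians but are not reported here by name.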

Additional observations from a re-analysis of the deposited data

How the results depend on the processing

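The alternatives were quantile normalization, equal totals, median centring, stricter and no filters, constants of 0.1 and 4 in place of 1, 1 fit for all 3 groups, the replicate number as a block, a trended and robust spread, an unadjusted threshold, and leaving out each library in turn. No member changed sign with surface proteins against RANKL alone or against heat-killed MJ2 in any of these that kept it among the genes tested. Against RANKL alone, members called lower numbered 29 to 37 with each library left out and 32 to 40 otherwise, those with an adjusted p under 0.05 numbered 30 to 41 and 34 to 44, and the median ran from -1.90 (without replicate 1 of surface proteins) to -1.58 with a library left out. In 25 members the call was made in all 16 refits. Against heat-killed MJ2, the members called numbered 13 to 36 with a library left out and 27 to 41 otherwise, those with an adjusted p under 0.05 numbered 13 to 37 and 28 to 45, and the median ran from -1.95 to -1.61. The lowest of these counts came without replicate 1 of heat-killed MJ2 (13 and 13), without its replicate 3 (15 and 15) and without replicate 2 of surface proteins (24 and 25), and 11 members were called in all 16 refits. The cause was not tested. With heat-killed MJ2 against RANKL alone, 0 members were called in any alternative, 2 (Rrm2 and Gins3) had an adjusted p under 0.05 with the trended and robust spread, the median ran from -0.0025 to 0.23, and 25 estimates that did not pass changed sign in some alternative.

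With the replicate number as a block, 33 members were called with surface proteins against RANKL alone, 31 against heat-killed MJ2, and 0 between heat-killed MJ2 and RANKL alone. Libraries with the same number had correlated deviations across genes (r from 0.018 to 0.106), each the highest with its own number, which is a hint from the data, and the numbers were not taken to pair the libraries. Among the members alone these correlations took both signs (r from -0.29 to 0.21). Depth limits Orc1, Pole, Exo1 and Fancd2, which held fewer than 10 adjusted reads in at least 1 library with surface proteins, so that their fold changes are understated.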
